A study of Homo sapiens with 4 samples.

Results

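Replication and mitosis genes are the transcripts that dividing cells make in waves. Here 34 of them were examined in a lymphoma line with an inducible hairpin against the kinase IKKa. A gene was taken when probes carrying its symbol, or an older name of it, gave a value on all 4 arrays, and its probes were averaged. Probes met this for 30 of the 34 genes, among 3589 genes measured on all 4 arrays. The genes fell into an S-phase group of 13, of which 9 were measured (MCM2, MCM4, MCM5, MCM7, PCNA, RRM1, RRM2, CDC6 and CCNE1), and a mitotic group of 21, of which 21 were measured. No probe was named for MCM3, MCM6, TYMS or CCNE2, so those 4 have no expression value here.

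The cells were OCI-Ly3, a line of the activated B-cell type of diffuse large B-cell lymphoma, whose growth depends on NF-kB signalling. They carried a hairpin against IKKa (gene CHUK) that doxycycline switches on, per the labels and the study's design text, and each of the 4 arrays compared cells given doxycycline at 20 ng/ml (labelled with Cy5) with cells not given it (Cy3). Without inhibitor, 1 array was made after 2 days of doxycycline and 1 after 3 days. With inhibitor, both channels received MLN120b, an inhibitor of the kinase IKKb, at 12.5 uM. Its exposure was 3 h where doxycycline had been given for 2 days, and 24 h where it had been given for 3. Since both channels of those arrays held the inhibitor, a ratio there gives the response to doxycycline under inhibition and not the response to the inhibitor. No array carried the opposite dyes and none came from cells with a control hairpin, so effects of dye, of doxycycline and of IKKa loss cannot be told apart. The labels name no separate cultures or clones, and the 2 arrays of a group differ in time, so their spread holds time as well as replicate error.

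All values below are deposited log ratios read as log2, with doxycycline over no doxycycline as the likely direction. Neither the base nor the direction is stated, and with the ratio turned every "lower" becomes "higher". CHUK, whose sign is part of the basis for that direction, stood at -0.59 and -0.87 on the arrays lacking inhibitor and at -1.30 and -1.01 on the others. Its mean did not pass without inhibitor (-0.73, limma adjusted p = 0.155) and passed with it (-1.15, limma adjusted p = 0.013). The difference between these means was not called (limma adjusted p = 0.989). Over the 4 arrays CHUK averaged -0.94 (limma adjusted p = 0.00477). IKKa protein was not measured. The spread of all genes was unequal, with a median absolute deviation of 0.109 on the 2-day array, 0.177 on the 3-day array, 0.166 on the 3 h inhibitor array and 0.259 on the 24 h inhibitor array. The arrays correlated across genes at 0.468 to 0.748, with doxycycline and dye common to all of them. Ratios give no level, so the B cell identity of the line could not be checked from its markers.

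Cells entering S phase release E2F factors from the retinoblastoma proteins, and E2F sites near the start of MCM, CDC6, ribonucleotide reductase and cyclin E genes drive their transcription. Genes of G2 and mitosis are held down in resting cells by the DREAM complex through a short element called CHR. The same element, usually beside CCAAT boxes bound by NF-Y, is used by B-MYB and FOXM1 when these genes are switched on later in the cycle. Transcripts of both groups are abundant in cycling cells and scarce in arrested ones, and are used as proliferation markers in lymphoma. In RNA from a whole culture, fewer cycling cells and less RNA per cycling cell cannot be told apart.

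The promoters of the members are shown first, searched for these elements, which not all of them held. RefSeq windows on GRCh38.p14, from 250 bases before to 50 bases after the start site, were matched by symbol for 7 of the 9 measured S-phase members and 18 of the 21 mitotic members, and the shares of the members and of all measured genes below are over measured genes with a window. The windows not matched were those of MCM4, MCM5, AURKA, BIRC5 and FOXM1. The E2F letters searched on both strands were TTTCCCGC, TTTCGCGC, TTTGCCGC and TTTGGCGC, and they occurred in 4 of 7 S-phase members (MCM2, MCM7, PCNA and CDC6) and 3 of 18 mitotic members (CDK1, CDC25A and CENPA), against 6.98% of all measured genes. Counting only matches before the start site, the S-phase count was 2 of 7 and the mitotic count 3 of 18, against 5.82% of all measured genes. MCM3, MCM6 and TYMS, which have no expression value, also held a match. The CHR letters TTTGAA occurred in 1 of 7 S-phase members and 11 of 18 mitotic members (61.1%), against 16.7% of measured genes. The CCAAT box occurred in 5 of 7 and in 16 of 18, against 45.0% of measured genes. A consensus for NF-kB, searched by name, occurred in 3 of 7 and in 1 of 18, against 19.3%. A match describes the letters in the window and is not evidence of binding.

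Of the mitotic group, the 120 bases before the start site are given for the 4 called genes below that have a window (CCNB2, NEK2, TOP2A and BUB1B), for the kinase PLK1, which was not called, and for KIF11, whose values lay above 0. Capitals mark CCAAT and CHR letters in either orientation (ATTGG and TTCAAA on the opposite strand). The pieces lie at chr15:59105026-59105145 (plus strand), chr1:211675622-211675741 (minus), chr17:40417897-40418016 (minus), chr15:40160949-40161068 (plus), chr16:23678769-23678888 (plus) and chr10:92593010-92593129 (plus).
CCNB2: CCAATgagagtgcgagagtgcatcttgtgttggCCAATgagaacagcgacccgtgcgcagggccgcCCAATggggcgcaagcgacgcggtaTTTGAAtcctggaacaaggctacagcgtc
NEK2: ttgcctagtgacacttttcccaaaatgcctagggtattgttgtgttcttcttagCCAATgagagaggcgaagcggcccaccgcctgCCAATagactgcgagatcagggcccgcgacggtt
TOP2A: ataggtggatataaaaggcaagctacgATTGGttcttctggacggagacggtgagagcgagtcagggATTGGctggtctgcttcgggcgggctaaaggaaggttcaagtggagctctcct
BUB1B: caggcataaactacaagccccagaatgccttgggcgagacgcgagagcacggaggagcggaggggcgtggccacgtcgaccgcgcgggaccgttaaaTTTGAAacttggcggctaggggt
PLK1: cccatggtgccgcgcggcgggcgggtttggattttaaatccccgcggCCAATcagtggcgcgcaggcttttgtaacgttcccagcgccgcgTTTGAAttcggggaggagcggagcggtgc
KIF11: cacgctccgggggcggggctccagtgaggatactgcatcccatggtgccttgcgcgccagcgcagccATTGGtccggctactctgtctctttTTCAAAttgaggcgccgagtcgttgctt
In this stretch CCNB2 carried 3 CCAAT boxes and a CHR, NEK2 and TOP2A carried CCAAT boxes and no CHR, and BUB1B carried a CHR and no CCAAT box. TOP2A did hold CHR letters further upstream in its window, at -194 and -151, and NEK2 held none. KIF11 carried both elements, as PLK1 did. For the S-phase group the 30 bases around the start site are given for MCM2 (chr3:127598403-127598432, plus strand) and CDC6 (chr17:40287871-40287900, plus strand), with the E2F letters in capitals.
MCM2: gtgaaccactTTTCGCGCGAAAcctggttg
CDC6: ctgtggccattcggaTTTGGCGCgagcgcg
Each of these matches lies just after the annotated start. Among the 6 members with a window that were called lower over the 4 arrays, 3 held a CHR, 5 a CCAAT box and 1 an E2F match. Among the 19 other measured members with a window, 9 held a CHR, 16 a CCAAT box and 6 an E2F match.

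Averaged over the 4 arrays, 9 of the 30 measured members were lower with doxycycline and 0 were higher (limma against 0, Benjamini-Hochberg adjusted p under 0.05 over all 3589 genes). The background of the same test was 304 genes lower, 8.47%, and 97 genes higher, 2.70%. The S-phase group gave 4 of 9 (MCM4, MCM5, RRM2 and CDC6) and the mitotic group 5 of 21 (BUB1B, BIRC5, NEK2, TOP2A and CCNB2). The called changes were small, from 1.27-fold for CDC6 to 1.86-fold for MCM4. At an unadjusted p under 0.05, 19 members were lower and 1 (KIF11) was higher, beside 730 and 411 of the 3589 genes. In all, 21 of 30 members lay below 0 on all 4 arrays, 7 of the S-phase group and 14 of the mitotic group, where 25.8% of all genes did so.

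The count moved with single arrays and with scaling. Without the 2-day array only MCM4 was called, among 40 genes lower in all, and without the 3-day array no member was, among 12. Without the 3 h inhibitor array 19 members were called, but so were 622 genes lower in all, and without the 24 h inhibitor array 7 members (CDC6 and RRM2 being lost) among 311. Centring each array on its median left 5 of 215 (BIRC5, CDC6, MCM5 and RRM2 being lost), and scaling the arrays to equal spread gave 15 of 452. Taking the day of doxycycline as a block gave 19 lower members of 714 lower genes, and 1 higher member (KIF11) of 407 higher genes. The larger member counts thus came with larger counts over all genes.

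**Figure D1:**
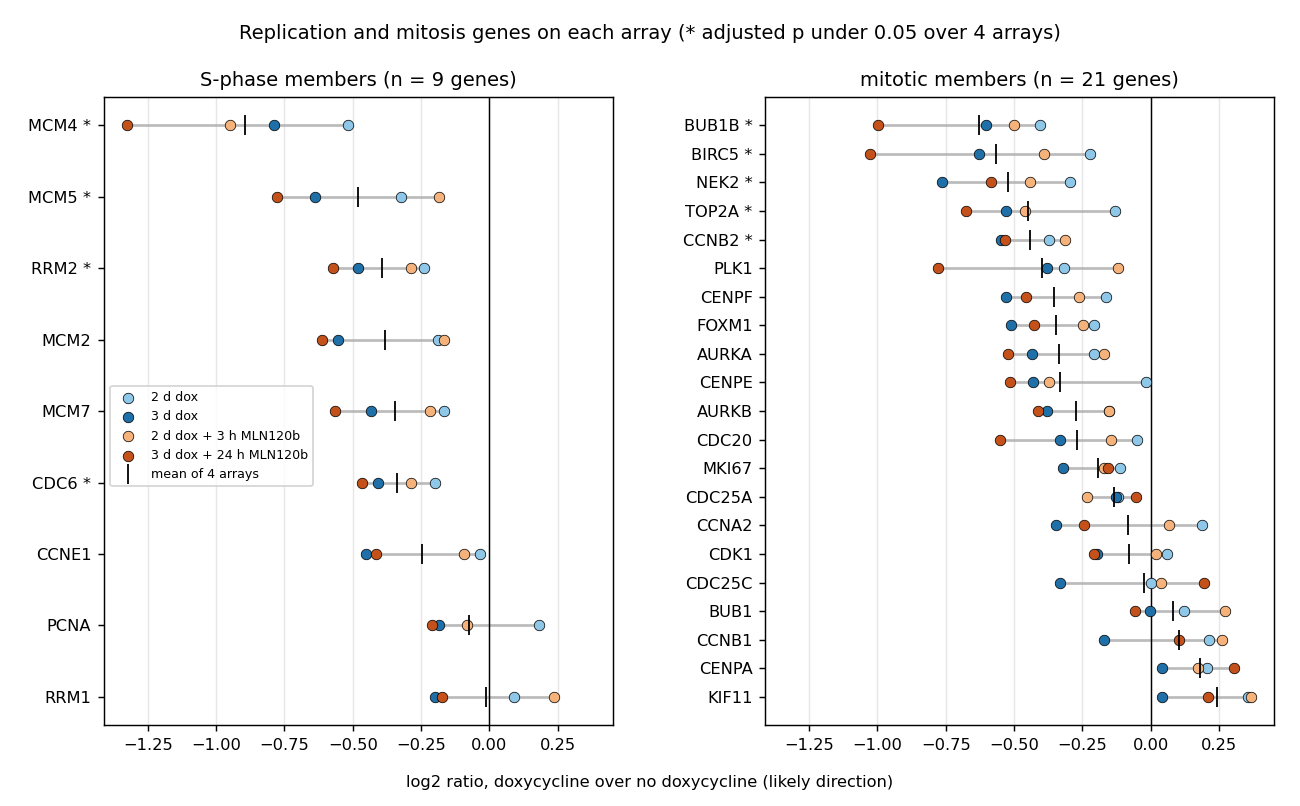
Log2 ratio of each measured member on each of the 4 arrays (coloured points, horizontal axis) with the mean of the 4 (black tick), S-phase genes on the left and mitotic genes on the right, sorted by mean. MCM4 lies lowest, at -0.52 to -1.33, and CENPA and KIF11 lie above 0 on every array.

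Among the S-phase genes, the MCM proteins form the ring-shaped helicase that is loaded at replication origins in G1 and unwinds DNA in S phase. MCM4 read -0.52 and -0.79 after 2 and 3 days in the absence of inhibitor, and -0.95 and -1.33 under it. All 4 values were lower than any other member's on the same array. MCM4 fell by 0.90 on the log2 scale ± 0.34 (SD, n = 4), 1.86-fold, with adjusted p = 0.00766 by limma over the 4 arrays. It rests on the 1 MCM4 probe with a value on every array. Each of the other MCM4 probes lacks 1 array and was closer to 0 on the arrays it has, and with them included the mean was -0.64 (limma adjusted p = 0.0209) and that of the inhibitor arrays -0.75. MCM5 read -0.32 and -0.64 without inhibitor and -0.19 and -0.78 with it, a mean of -0.48 ± 0.27 (SD, n = 4; limma adjusted p = 0.0469). Its values at 3 days lay below both values at 2 days, and the groups with and without inhibitor overlapped.

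The other measured helicase subunits had means of similar size to MCM5 and did not pass the test. MCM2 read -0.19 and -0.56 without inhibitor and -0.17 and -0.61 with it (mean -0.38, limma adjusted p = 0.0633), and its 4 probes all averaged below 0. MCM7 read -0.17 and -0.43 without inhibitor and -0.22 and -0.56 with it (mean -0.35, limma adjusted p = 0.0603). All 4 measured subunits were therefore below 0 on every array, at about the same size except for MCM4.

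CDC6, the loading factor that brings the helicase to the origin, read -0.20 and -0.41 without inhibitor and -0.29 and -0.47 with it. It fell by 0.34 ± 0.12 on the log2 scale (SD, n = 4; limma adjusted p = 0.0484), the smallest called change among the members. Its 2 probes averaged -0.11 and -0.57, so the size depends on the probe. CCNE1, the cyclin that activates CDK2 at the start of S phase, read -0.03 and -0.45 without inhibitor and -0.09 and -0.41 with it (mean -0.25, limma adjusted p = 0.156). Both of its values at 2 days were near 0 and both at 3 days were near -0.4.

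Ribonucleotide reductase makes deoxynucleotides and has a large and a small subunit. RRM2, the small subunit that is made in S phase and degraded afterwards, read -0.24 and -0.48 without inhibitor and -0.29 and -0.57 with it. RRM2 fell by 0.39 ± 0.16 on the log2 scale (SD, n = 4; limma adjusted p = 0.042), and its 2 probes averaged -0.39 and -0.40. RRM1, the long-lived large subunit, read 0.09 and -0.20 without inhibitor and 0.24 and -0.17 with it, a mean of -0.01 ± 0.21 (SD, n = 4; limma adjusted p = 0.946). Its sign followed the day on both sides of the inhibitor. PCNA, the sliding clamp of the DNA polymerases, read 0.18 and -0.18 without inhibitor and -0.08 and -0.21 with it, a mean of -0.07 ± 0.18 (SD, n = 4; limma adjusted p = 0.613). The difference between RRM2 and RRM1, or between PCNA and the MCM genes, was not tested.

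In the mitotic group, BUB1B had the lowest mean over the 4 arrays. BUB1B, which encodes the checkpoint kinase BubR1, read -0.41 and -0.60 without inhibitor and -0.50 and -0.998 with it. BUB1B fell by 0.63 ± 0.26 on the log2 scale (SD, n = 4), 1.54-fold, with limma adjusted p = 0.0219 over the 4 arrays. Its 2 probes averaged -0.57 and -0.68. BUB1, the related checkpoint kinase that recruits BubR1 to kinetochores, read 0.12 and -0.0015 without inhibitor and 0.27 and -0.06 with it, a mean of 0.08 (limma adjusted p = 0.552). The difference between the 2 checkpoint kinases was not tested.

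BIRC5 encodes survivin, a subunit of the chromosomal passenger complex that also has a role in cell survival. It read -0.22 and -0.63 without inhibitor and -0.39 and -1.03 with it, and fell by 0.57 ± 0.35 on the log2 scale (SD, n = 4; limma adjusted p = 0.0381). The 24 h inhibitor array held the lowest value, and both 3-day values lay below both 2-day values. AURKB, the kinase of the same complex, read -0.15 and -0.38 without inhibitor and -0.15 and -0.41 with it (mean -0.27, limma adjusted p = 0.0865). BIRC5 rests on 1 probe.

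NEK2, a kinase of centrosome separation, read -0.30 and -0.76 without inhibitor and -0.44 and -0.59 with it. NEK2 fell by 0.52 ± 0.20 on the log2 scale (SD, n = 4; limma adjusted p = 0.0283). Its 2 probes averaged -0.97 and -0.08, the widest gap between probes of any member, so the gene's value is the mean of a probe far below 0 and one near 0. The other mitotic kinases did not pass. PLK1 read -0.32 and -0.38 without inhibitor and -0.12 and -0.78 with it (mean -0.40, limma adjusted p = 0.0669), and its inhibitor arrays enclosed both arrays without inhibitor. AURKA, the spindle pole kinase, read -0.21 and -0.43 without inhibitor and -0.17 and -0.52 with it (mean -0.33, limma adjusted p = 0.0627).

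TOP2A, the topoisomerase that untangles sister chromatids, read -0.13 and -0.53 without inhibitor and -0.46 and -0.68 with it. TOP2A fell by 0.45 ± 0.23 on the log2 scale (SD, n = 4; limma adjusted p = 0.0366), and its 2 probes averaged -0.43 and -0.47. MKI67, which encodes the Ki-67 antigen used to count cycling cells in tumour sections, read -0.11 and -0.32 without inhibitor and -0.17 and -0.16 with it (mean -0.19, limma adjusted p = 0.16). Its 4 probes spread from -0.48 to 0.03.

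Of the cyclins that drive mitotic entry, 1 was called. CCNB2 read -0.37 and -0.55 without inhibitor and -0.32 and -0.53 with it, with nearly the same values in both inhibitor states. CCNB2 fell by 0.44 ± 0.12 on the log2 scale (SD, n = 4; limma adjusted p = 0.0283), on 1 probe. CCNB1, the other B-type cyclin, read 0.21 and -0.17 without inhibitor and 0.26 and 0.10 with it (mean 0.10, limma adjusted p = 0.489). CCNA2, the cyclin of S phase and G2, read 0.19 and -0.35 without inhibitor and 0.07 and -0.24 with it (mean -0.08, limma adjusted p = 0.63). CDK1, the kinase both types of cyclin activate, read 0.06 and -0.20 without inhibitor and 0.02 and -0.21 with it (mean -0.08, limma adjusted p = 0.563). CCNA2 and CDK1 were thus above 0 on both 2-day arrays and below 0 on both 3-day arrays.

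Of the genes that act on CDK1 or end mitosis, none was called. CDC25A and CDC25C, phosphatases that activate cyclin-dependent kinases, averaged -0.13 and -0.03 (limma adjusted p = 0.296 and 0.873). CDC25C read 0.00 and -0.33 without inhibitor and 0.04 and 0.19 with it, and its 2 probes averaged on opposite sides of 0. CDC20, the activator of the anaphase-promoting complex, read -0.05 and -0.33 without inhibitor and -0.15 and -0.55 with it (mean -0.27, limma adjusted p = 0.12). FOXM1, the transcription factor of the mitotic programme, read -0.21 and -0.51 without inhibitor and -0.25 and -0.43 with it, just short of passing (mean -0.35, limma adjusted p = 0.0513).

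Centromere and motor proteins held both low and high members. CENPF, a kinetochore protein of late G2, read -0.16 and -0.53 without inhibitor and -0.26 and -0.46 with it (mean -0.35, limma adjusted p = 0.0555), and its 7 probes were each below 0 on all 4 arrays. CENPE, a kinetochore motor, read -0.02 and -0.43 without inhibitor and -0.37 and -0.52 with it (mean -0.33, limma adjusted p = 0.0646). CENPA, the histone variant that marks the centromere, was above 0 throughout, at 0.21 and 0.04 without inhibitor and 0.17 and 0.31 with it (mean 0.18 ± 0.11, SD, n = 4; limma adjusted p = 0.177). KIF11, the motor that pushes spindle poles apart, was the highest member, at 0.36 and 0.04 without inhibitor and 0.37 and 0.21 with it. Its mean of 0.24 ± 0.15 (SD, n = 4) did not pass (limma adjusted p = 0.118), and it rests on 1 probe.

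Probe by probe, 88 probes carried a member's symbol and 71 of them had a value on all 4 arrays. Of these 71, 57 averaged below 0 and 40 were below 0 on all 4 arrays. Tested singly over 6796 probes, 27 of the 71 were called lower and 0 higher by limma, where 13.0% of all probes were called lower. Of the 23 members with 2 or more probes, 16 had them all on 1 side of 0. The exceptions were PCNA, RRM1, MKI67, CDK1, BUB1, CDC25C and CENPE. The other 7 members rested on 1 probe, among them MCM4, MCM5, CCNB2 and BIRC5 of the 9 called.

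**Figure D2:**
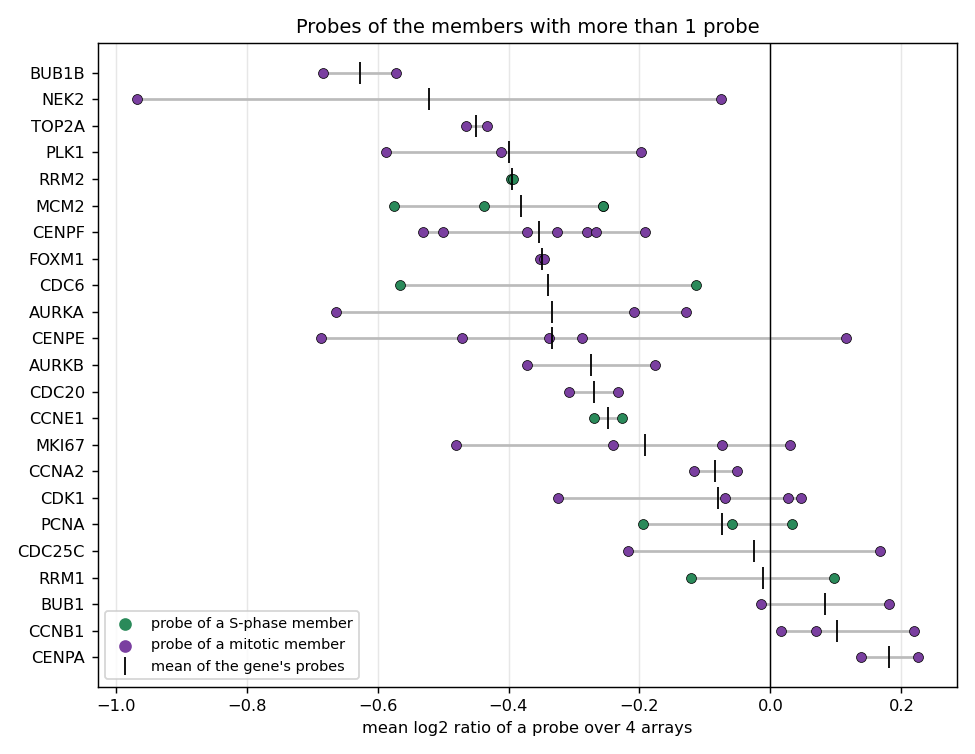
Mean log2 ratio over the 4 arrays of each probe of the 23 members with more than 1 probe (points, horizontal axis), with the gene's mean as a black tick. The 7 CENPF probes all lie below 0, at -0.53 to -0.19, while the 2 NEK2 probes lie at -0.97 and -0.08.

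Taken by inhibitor state, the test against 0 called members with the inhibitor and none without it. With inhibitor, 2 of 30 members were lower and 0 higher by limma, beside backgrounds of 3.04% lower and 1.53% higher. MCM4 averaged -1.14 ± 0.27 (SD, n = 2) with adjusted p = 0.0147. BUB1B averaged -0.75 ± 0.35 (SD, n = 2) with limma adjusted p = 0.0414. This call was lost on centring, without the 24 h inhibitor array, and without any 1 of the arrays that lacked inhibitor. Dropping either of the arrays that lacked inhibitor gave the same fit of the inhibitor mean, so it is 1 check. Without the 3 h inhibitor array 14 members were called with the inhibitor, among 427 genes lower, and with the day as a block 17 were, among 506. MCM4 alone was lower by over 1.5-fold on both inhibitor arrays, where 2.40% of genes were.

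Without inhibitor, 0 of 30 members were called by limma, and so was 0.00% of all genes, the lowest adjusted p being 0.0693. At an unadjusted p under 0.05 there were 400 genes and 13 members. After the arrays were scaled to equal spread, 5 members were called, all lower, among 182 lower genes. Taking the day as a block gave 1 called member, MCM4, among 54 lower genes. Leaving out the 3 h or the 24 h inhibitor array gave the same fit of this group's mean, and in it some members were called lower. The spread then came only from the arrays without inhibitor, so these omissions are 1 check. No member was lower by over 1.5-fold on both arrays, as 0.919% of genes were.

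The inhibitor states were compared by the difference between their responses. For this difference limma called 0 of 30 members and 0.00% of all genes, with 173 genes and 1 member, MCM4, at an unadjusted p under 0.05. MCM4 was lower with the inhibitor by 0.43 at 2 days and by 0.54 at 3 days, a mean difference of -0.48 (SE 0.20, adjusted p = 0.989 by limma). The size was not stable: it was -0.14 with arrays scaled to equal spread and -0.21 with the MCM4 probes that lack an array included, and it ran from -0.67 to -0.30 when single arrays were left out (without the 3 h and the 24 h inhibitor array). In all, 11 of 30 members were lower with inhibitor at both days, where 25.6% of genes were. They were MCM4, MCM7, PCNA, RRM2 and CDC6 of the S-phase group and TOP2A, CDC20, CDK1, BIRC5, BUB1B and CENPE of the mitotic group. After scaling to equal spread 3 of 30 remained on this side, where 18.4% of genes did. The inhibitor arrays differ in exposure, 3 h against 24 h, so inhibitor time and doxycycline time cannot be told apart.

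The S-phase and mitotic groups were then set beside each other on each array. The S-phase median was -0.19 on the 2-day array, -0.45 on the 3-day array, -0.19 on the 3 h inhibitor array and -0.57 on the 24 h inhibitor array. The mitotic median was -0.12, -0.38, -0.17 and -0.43 in the same order, and the median of all genes -0.01, -0.06, -0.02 and -0.03. The S-phase median was the lower of the pair on all 4 arrays, by less than the range of either group. Of the 9 S-phase genes, 7, 9, 8 and 9 were below 0 in that order, and of the 21 mitotic genes 14, 19, 14 and 17. Over all genes the shares below 0 were 51.9%, 59.2%, 53.4% and 53.3%. In units of each array's own median absolute deviation the S-phase medians were -1.74, -2.56, -1.12 and -2.18, and the mitotic medians -1.09, -2.14, -1.03 and -1.65.

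**Figure D3:**
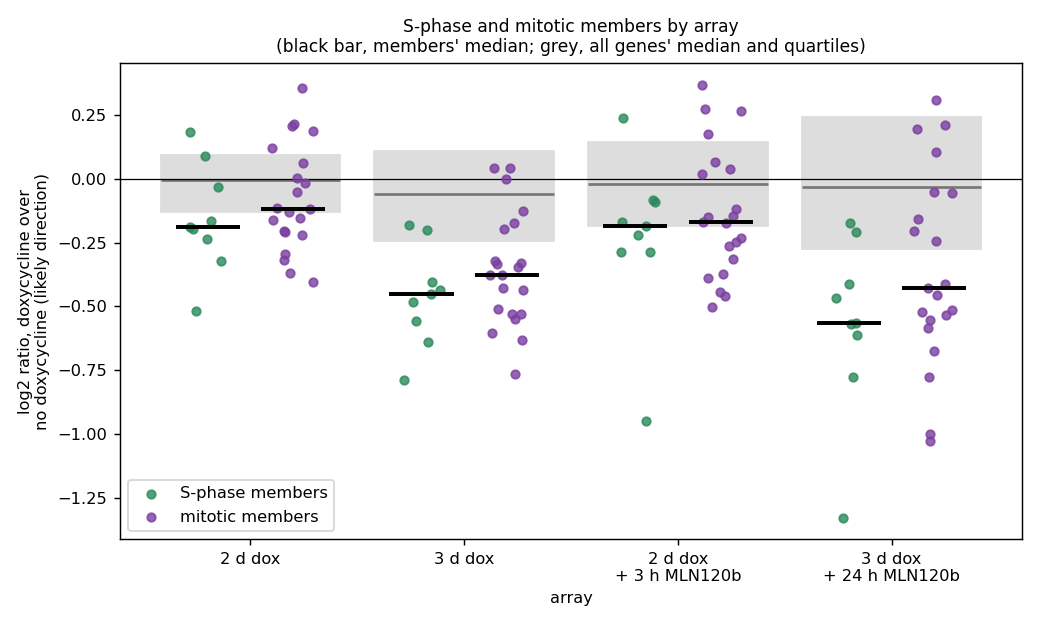
Log2 ratios of the 9 S-phase and 21 mitotic genes on each of the 4 arrays (points), with each group's median as a black bar and the median and quartiles of all genes in grey. Both medians are lower on the 3-day arrays, at -0.45 and -0.57 for the S-phase genes and -0.38 and -0.43 for the mitotic genes, than on the 2-day arrays.

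By day, the median of the S-phase group was -0.19 at 2 days and -0.51 at 3 days, and that of the mitotic group -0.14 and -0.40 (means of the 2 arrays' medians). By inhibitor state the S-phase group gave -0.32 without and -0.38 with the inhibitor, and the mitotic group -0.25 and -0.30. At the same day of doxycycline, the median with inhibitor minus that without it was 0.00275 at 2 days and -0.11 at 3 days for the S-phase group. It was -0.053 and -0.049 for the mitotic group, and -0.012 and 0.027 over all genes. Taken gene by gene, the median difference was -0.054 and -0.0605 for the S-phase group and -0.041 and 0.015 for the mitotic group. Over all genes it was -0.0015 and 0.0515. The sign for the S-phase group at 2 days and the mitotic group at 3 days thus depended on the measure. With 1 array per state and day, these gaps have no replicate error. Moving CDC25A and CCNA2, which also act in S phase, into the S-phase group changed its median to -0.17 on the 2-day array and -0.47 on the 24 h inhibitor array. The mitotic median without them was -0.13 and -0.46 on the same arrays. The gap between the groups on the 24 h inhibitor array thus depended on where these genes were placed.

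Member by member, 26 of 30 were lower at 3 than at 2 days in both inhibitor states, where 43.2% of all genes were. This held for 9 of 9 S-phase genes and 17 of 21 mitotic genes. The 4 exceptions, MKI67, CDC25A, CDC25C and CENPA, all had a higher value at 3 days with the inhibitor. The median difference of 3 minus 2 days was -0.29 for the S-phase group and -0.28 for the mitotic group without inhibitor, and -0.35 and -0.22 with it, beside -0.07 and -0.04 over all genes. Without inhibitor the differences ran from -0.53 (CCNA2) to -0.01 (CDC25A), so all 30 were below 0, as were 60.7% of all genes. A lower value at 3 days in both states was not particular to the members. In the lists described below it held for 8 of 9 housekeeping, 16 of 18 nucleotide supply and 5 of 5 cohesin genes. It held for 14 of 25 other replication genes, 20 of 34 other mitotic genes and 1 of 10 T cell markers.

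No member passed the test of the day difference. limma called 0 of 30 members and 0.00% of all genes, and at an unadjusted p under 0.05 there were 727 genes, 404 of them lower at 3 days, and 11 members, all lower. BIRC5 had the largest difference, -0.52 (SE 0.12, limma adjusted p = 0.208), followed by MCM5 with -0.45, CCNA2 with -0.42 and MCM2 with -0.41 (limma adjusted p = 0.208 for each). The 3-day arrays spread more widely than the matching 2-day arrays. With equal spread, 19 of 30 members were lower at 3 days in both states, where 37.2% of genes were, and the day differences of MCM4 and CCNB2 turned to 0.08 and 0.01.

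**Figure D4:**
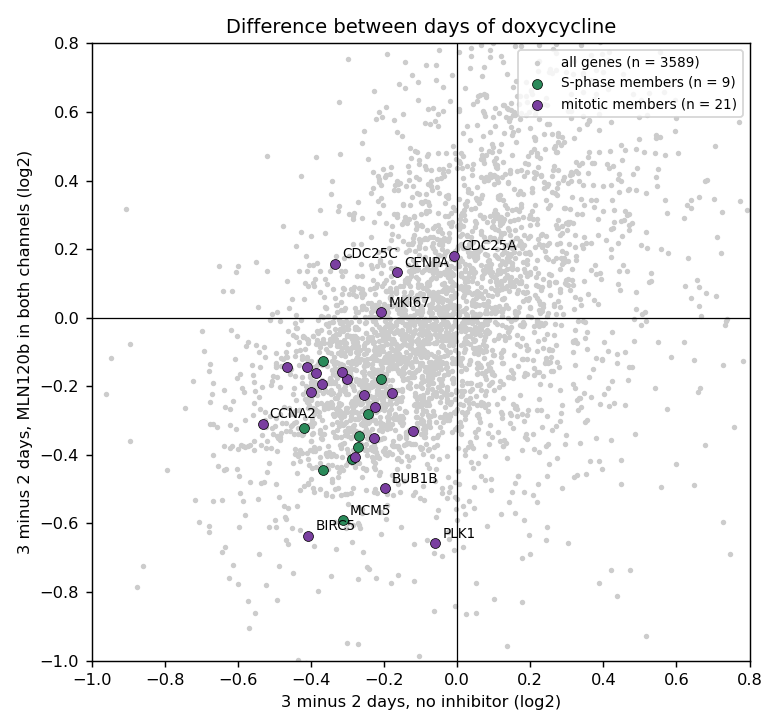
Difference of 3 minus 2 days of doxycycline without inhibitor (horizontal axis, log2) against the same with MLN120b in both channels (vertical axis, log2) for all genes (grey), S-phase genes (green) and mitotic genes (purple). 26 of the 30 members lie below 0 on both axes, and 143 genes fall outside the plotted range.

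Other genes of replication and division were taken from lists, whose counts stand beside the 8.47% of all genes that fell in the same test. Of 25 measured of 47 other replication genes, 6 fell over the 4 arrays by limma and 0 rose. They were POLA2 and POLE3 (subunits of DNA polymerases), FEN1 (the flap nuclease of lagging strands), CDC7 and its activator DBF4 (the kinase that fires origins) and TOPBP1 (an origin and checkpoint scaffold). DBF4 averaged -0.98 ± 0.33 (SD, n = 4; limma adjusted p = 0.0104), the only one of them below MCM4's mean. Of 18 measured nucleotide supply genes 1 fell, IMPDH2 (guanine nucleotide synthesis, mean -0.44), a share no higher than that of all genes. The median of the other replication genes was -0.13, -0.18, -0.13 and -0.29 in the array order used above.

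Of 34 measured of 64 other mitotic genes, 6 fell and 0 rose over the 4 arrays by limma. They were TPX2 (an activator of AURKA), NUF2 and CENPH (kinetochore subunits), NCAPH (a condensin subunit), ASPM (spindle poles) and the motor KIF15. Their means ran from -0.34 for NCAPH to -0.71 for KIF15, and their list's median was 0.01, -0.19, -0.06 and -0.17 by array. One of 4 measured subunits of the anaphase-promoting complex fell (CDC27, mean -0.44), and 1 of 5 cohesin genes (PDS5A, mean -0.50). KIF15 varied most, with an SD of 0.64.

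Among 11 measured RB, E2F and DREAM genes, MYBL2, which encodes B-MYB, fell by 0.57 ± 0.24 on the log2 scale (SD, n = 4; limma adjusted p = 0.0283), and RBL2, the p130 protein of DREAM, by 0.40 (limma adjusted p = 0.0471). Among 13 measured G1 cyclins, kinases and inhibitors none was called, CDK4 averaging -0.44 and CDKN2A 0.33 (limma adjusted p = 0.0558 and 0.0813). Among 11 DNA damage checkpoint genes, RAD17, the loader of the checkpoint clamp, fell by 0.64 (limma adjusted p = 0.0158), and 1 of 11 is near the share of all genes. Over the 4 arrays the list medians were -0.14 for nucleotide supply, -0.12 for the anaphase-promoting complex, -0.18 for cohesin, -0.12 for the G1 genes, -0.13 for the RB, E2F and DREAM genes and -0.04 for the checkpoint genes, beside -0.01 for all genes. On the inhibitor arrays taken by themselves, DBF4, TOPBP1, IMPDH2, NUF2 and RAD17 were called lower.

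Some genes outside the cell cycle were lower as well. Of 9 measured housekeeping genes 4 fell over the 4 arrays by limma, ACTB (mean -0.71), YWHAZ (-0.53), TFRC (-0.51) and PGK1 (-0.44), and their median was -0.21, -0.37, -0.22 and -0.55 by array, close to that of the S-phase group. Of 11 measured B cell markers 1 fell (CD37, mean -0.35), near the share of all genes, and their median was between -0.16 and -0.02. Of 10 T cell markers none was called, their median ran from -0.04 to 0.33, and CD3D averaged 0.22 and CD5 0.19. Of 5 myeloid markers none was called, with a median between -0.01 and 0.11, CSF1R averaging 0.32 and ITGAM -0.27. Their part in the members' values was not tested.

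**Figure D5:**
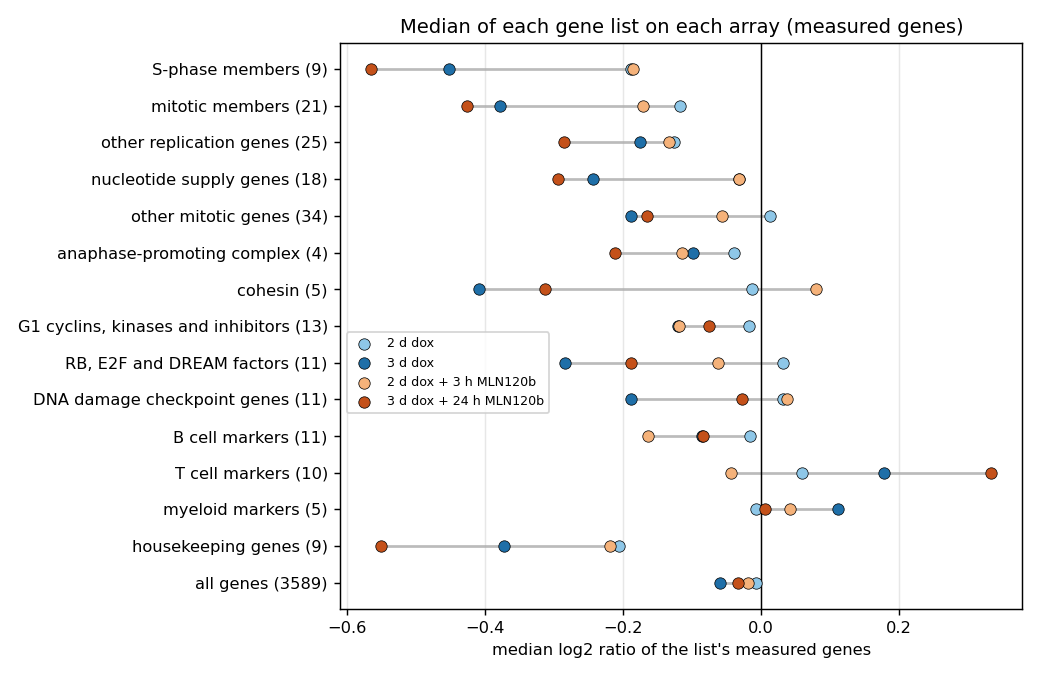
Median log2 ratio of each gene list on each of the 4 arrays (coloured points), with the number of measured genes in brackets. On the 24 h inhibitor array the S-phase, housekeeping and mitotic medians lie lowest, at -0.57, -0.55 and -0.43, on the 3-day array the cohesin median (-0.41) lies below the mitotic one (-0.38), and the median of all genes lies within 0.06 of 0 on every array.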

How the data were processed

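RNA of doxycycline-treated (Cy5) and untreated (Cy3) OCI-Ly3 cells was compared on 4 two-colour arrays. The authors deposited 1 log2 ratio per probe and array. The base is inferred from the range of the values, and how they were scanned, background-corrected and normalized, or why some cells are empty, is not stated in the labels or the file. Signal levels are unknown, so precision is limited by how many arrays there are. Of 15246 probes, 10169 had 1 symbol in the platform annotation, 4 several and 5073 none. Of the 10169, 10128 had their gene identifier in RefSeq, through which symbols were updated. Probes with a value on all 4 arrays (9788, of which 6796 had 1 gene) were averaged per gene to 3589 genes, 1866 of them on 1 probe. All 30 members with a probe passed this filter.

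limma 3.58.1 in R 4.3.3 fitted 1 mean per inhibitor group (2 residual degrees of freedom, prior 4.98), and a day term beside an inhibitor term (1 and 4.35). Tests were two-sided, with Benjamini-Hochberg adjustment over all genes at 0.05. The fits were tested on simulated data. Changes of 0.5 on the log2 scale were rarely or never found there by inhibitor state, for the inhibitor difference or for the day. The absence of calls in those tests therefore does not show that members did not change. Every measured member is named, and from the other lists those passing a test or else the 2 with the largest mean. The members and lists were chosen with earlier results of these data known. Alternatives covered scaling, centring, missing values, probe averaging, blocks, thresholds and leaving out each array. P-values measure the spread between these arrays only, which may be technical.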

Additional observations from a re-analysis of the deposited data

Results flagged for a closer look

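For 4 members the sign of the response differed between the days of doxycycline on every array, positive on both 2-day arrays and negative on both 3-day arrays. CCNA2 averaged 0.13 at 2 days and -0.29 at 3 days. RRM1 averaged 0.16 and -0.19, CDK1 averaged 0.040 and -0.20, and BUB1 averaged 0.20 and -0.030. BUB1 stood at only -0.0015 on the 3-day array without inhibitor, where its probes read 0.002 and -0.005, so its sign there is uncertain. These members were picked by the pattern of opposite signs, which was not itself tested. No share of all genes with it is given here, so the count of members cannot be read as unusual. In the fit over all genes the day difference of none of the 4 passed (limma adjusted p = 0.208 for CCNA2, 0.217 for RRM1, 0.294 for CDK1 and 0.328 for BUB1).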

How the results depend on the processing

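Every member called over 4 arrays lay below 0 on all 4. Leaving out or scaling arrays, a block or another prior therefore could not turn the sign of its mean. Centring, missing values and probe medians could have turned it and did not. Over all alternatives run, the call was kept in 64 of the values of these members and lost in 26. Counts of calls moved more. The counts below are of genes called by limma and, after them, of members. With arrays scaled to equal spread, 191 genes and 5 members were called without inhibitor, 638 and 15 over 4 arrays, and 3 genes for the day; the S-phase median became -0.24 at 2 days and -0.40 at 3 days and the mitotic median at 3 days -0.32; 3 members were lower with inhibitor at both days and 1 was lower by over 1.5-fold without inhibitor. The 4-array mean of RRM1 became 0.019, and the day differences of MCM4 (0.077) and CCNB2 (0.012) and the inhibitor difference of BUB1B (0.024) turned positive. With arrays centred on their medians, 109 genes and 1 member were called with inhibitor and 5 members over 4 arrays, the S-phase median at 2 days was -0.17 and the mitotic median at 3 days -0.36, and RRM1 (0.018) and CDC25C (0.0045) over 4 arrays and the day difference of CENPA (0.017) turned positive. With values needed on only 1 array per group, 4 genes were called for the inhibitor difference and 5 for the day, RRM1 averaged 0.041 and 2 members were lower by over 1.5-fold with inhibitor. With the median over probes, PCNA (-0.0305) and CCNB1 (-0.0085) turned negative without inhibitor and the S-phase median at 2 days was -0.19. With the day as a block, 56 genes and 1 member were called without inhibitor, 908 and 17 with it, and 1121 and 20 over 4 arrays. At adjusted p under 0.10 there were 6 genes without inhibitor, 590 and 8 with it, and 836 and 17 over 4 arrays. Single probes gave 70, 794 and 1189 calls and 5 for the day. With CDC25A and CCNA2 moved, the S-phase median at 2 days was -0.18, and a 2-fold rule left 0 members with inhibitor.

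Leaving out each array in turn assumes that a lone array varies like the other group's. It gave 0 to 231 genes and 0 to 6 members without inhibitor, 34 to 858 and 1 to 14 with it, 0 to 119 genes for the inhibitor difference, and 12 to 1074 and 0 to 19 over 4 arrays. Without inhibitor, PCNA ran from -0.18 to 0.18, RRM1 from -0.20 to 0.089, CCNB1 from -0.17 to 0.21, CDK1 from -0.20 to 0.0605, CCNA2 from -0.35 to 0.19, BUB1 from -0.0015 to 0.12 and CDC25C from -0.33 to 0.0005. With inhibitor, RRM1 ran from -0.17 to 0.24, CDK1 from -0.21 to 0.020, CCNA2 from -0.24 to 0.0655 and BUB1 from -0.058 to 0.27. Over 4 arrays, PCNA ran from -0.17 to 0.0185, RRM1 from -0.12 to 0.092, CCNA2 from -0.22 to 0.049 and CDC25C from -0.11 to 0.058. The inhibitor difference of BIRC5 ran from -0.60 to 0.036 and that of BUB1B from -0.49 to 0.0043. The day difference could not be fitted without 1 array, for want of residual degrees of freedom. The causes of these changes were not tested.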
